A study of Mus musculus with 11 samples.

Results

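The 7 genes described here are BMP and TGF-beta feedback genes, chosen by name: Id1, Id2, Id3, Id4, Smad6, Smad7 and Bambi. They are 7 of the 13498 genes in a table of read counts from embryonic mouse retina, and all 7 passed the low-count filter that kept 13292 genes for testing. Total RNA was sequenced from pairs of retinas of NMRI mouse embryos at mid-gestation (E13.5), in 11 libraries. The DKO group (3 libraries) was Six3F/F with CAGGCre-ERTM and Six6-/-, the Six3KO group (3 libraries) was Six3F/F with CAGGCre-ERTM, the Six6KO group (2 libraries) was Six3F/F with Six6-/-, and the WT group (3 libraries) was Six3F/F alone. Every embryo, WT included, thus carried floxed Six3 alleles and came from a dam given tamoxifen, 0.15 mL of a 20 mg/mL stock at E10.5 and again at E11.5. Six3 and Six6 encode related homeobox transcription factors of the early eye. CAGGCre-ERTM is a tamoxifen-activated Cre recombinase under a broadly active promoter, so deletion of Six3 need not be limited to retinal cells, and Six6-/- is a germline genotype present in every cell. Cre was present only in the DKO and Six3KO groups, so loss of Six3 and presence of Cre cannot be told apart in comparisons with WT or Six6KO.

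BMPs and TGF-betas are secreted ligands that bind pairs of type I and type II serine/threonine kinase receptors, which phosphorylate Smad proteins that move to the nucleus with Smad4. Among the genes they switch on are brakes on the pathway: Smad6 and Smad7 are inhibitory Smads that block the receptors and the signal-carrying Smads, and Bambi is a decoy receptor without a kinase domain. Id proteins are BMP targets of another kind: they lack the basic region that contacts DNA and hold E proteins in dimers that cannot bind it, which restrains bHLH factors that drive neurons to differentiate. In the developing eye, BMP signalling is known for its part in lens induction, the dorsal retina and the ciliary margin.

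The libraries held between 7807744 reads in genes (a WT library) and 16403191 (a Six3KO library), and levels are given below as CPM (a gene's reads relative to all reads in genes of its library, with the library sizes scaled by TMM). The targeted genes matched the labels in direction, and the part of each gene removed by its allele is not given in the labels. Six3 had 56.2 to 98.2 CPM in DKO and 30.3 to 75.9 CPM in Six3KO, against 142 to 307 CPM in Six6KO and 164 to 299 CPM in WT. Six6 had 52.8 to 99.8 CPM in DKO and 76.8 to 131 CPM in Six6KO, against 168 to 339 CPM in Six3KO and 225 to 340 CPM in WT. Esr1, whose ligand-binding part is in the Cre-ERTM fusion, had 50.2 to 62.0 CPM in the 6 libraries with Cre and at most 0.625 CPM in the 5 others. The 10 retinal progenitor markers summed to 2654 to 3624 CPM in DKO, 2117 to 4258 CPM in Six3KO, 2743 to 4484 CPM in Six6KO and 3226 to 5019 CPM in WT, so RNA of these markers was present in every group. That list includes Six3 and Six6 themselves. Its other 8 markers summed to 2545 to 3426 CPM in DKO, 1919 to 3843 CPM in Six3KO, 2523 to 4046 CPM in Six6KO and 2837 to 4379 CPM in WT, and in DKO against WT 5 of these 8 had an estimate below 0 (median -0.34) and none was called. RNA of tissues outside the retina was also present and unequal between libraries. The 20 periocular mesenchyme markers summed to 501 to 622 CPM in DKO, 958 to 5580 CPM in Six3KO, 2612 to 3348 CPM in Six6KO and 754 to 3105 CPM in WT. The 16 lens markers summed to 32.9 to 186 CPM in DKO, 270.5 to 21834 CPM in Six3KO, 87.8 to 9529 CPM in Six6KO and 55.1 to 1404 CPM in WT. The lens sum exceeded the progenitor sum in Six3KO rh012 (21834 against 4258 CPM), Six3KO rh026 (17608 against 2117 CPM) and Six6KO rh020 (9529 against 2743 CPM). Replicates of each group differed by more than sampling noise, with a chi-square per degree of freedom of 9.72 to 77.3 between library pairs, so no library was a repeat of another. The p-values below measure the spread between these libraries, each from 1 pair of retinas.

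The stretches of DNA around the start sites of Id2, Id3, Id4 and Smad6 are shown because Smad proteins are known to act on Id and inhibitory Smad genes through short elements near or upstream of the start. RefSeq promoter entries matched 4 of the 7 genes. Each stretch runs from 250 bases before to 50 bases after the RefSeq start, 5′ to 3′ along the gene's strand, in GRCm38.p6. They lie at chr12:25096043-25096342 (minus strand) for Id2, chr4:136143572-136143871 (plus strand) for Id3, chr13:48260866-48261165 (plus strand) for Id4 and chr9:64022010-64022309 (minus strand) for Smad6. The gene positions given further below are from GENCODE, whose starts can differ from RefSeq. By those positions the Id2 and Id3 stretches lie wholly inside the gene, and the Id4 stretch lies wholly before it. Motif positions below count from the RefSeq start. Capitals mark 3 motifs searched on both strands: GTCT, the short Smad-binding element, which reads AGAC on the other strand; GGCGCC, a GC-rich element bound by BMP-activated Smads; and GTCTAGAC, the palindromic Smad-binding element, which contains GTCT on each strand.
Id2: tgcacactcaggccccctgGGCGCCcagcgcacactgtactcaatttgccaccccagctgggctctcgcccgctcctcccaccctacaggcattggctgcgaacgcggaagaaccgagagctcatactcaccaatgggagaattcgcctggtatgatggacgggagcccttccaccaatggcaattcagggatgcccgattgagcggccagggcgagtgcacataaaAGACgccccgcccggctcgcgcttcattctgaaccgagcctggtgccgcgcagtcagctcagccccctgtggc
Id3: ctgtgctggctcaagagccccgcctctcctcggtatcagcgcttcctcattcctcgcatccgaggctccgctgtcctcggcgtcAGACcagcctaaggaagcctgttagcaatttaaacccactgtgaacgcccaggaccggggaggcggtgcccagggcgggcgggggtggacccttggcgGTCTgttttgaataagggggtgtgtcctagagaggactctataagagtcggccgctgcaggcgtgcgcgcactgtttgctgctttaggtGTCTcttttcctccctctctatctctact
Id4: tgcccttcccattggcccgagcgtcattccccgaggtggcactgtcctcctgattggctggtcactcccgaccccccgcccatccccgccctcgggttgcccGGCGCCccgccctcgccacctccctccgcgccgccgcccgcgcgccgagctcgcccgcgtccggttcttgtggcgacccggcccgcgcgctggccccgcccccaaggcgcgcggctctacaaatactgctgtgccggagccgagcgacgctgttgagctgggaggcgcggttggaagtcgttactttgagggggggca
Smad6: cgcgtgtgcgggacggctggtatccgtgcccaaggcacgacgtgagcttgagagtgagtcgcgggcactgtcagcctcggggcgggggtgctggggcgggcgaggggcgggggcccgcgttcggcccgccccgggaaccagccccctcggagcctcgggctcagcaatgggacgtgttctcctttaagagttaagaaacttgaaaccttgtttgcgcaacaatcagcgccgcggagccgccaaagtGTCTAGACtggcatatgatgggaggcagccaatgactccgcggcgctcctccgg

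GTCTAGAC occurred in the Smad6 stretch alone of these 4, from position -4 across the start site. Of 32851 mouse promoter stretches of the same length, 70 (0.213%) held it. GGCGCC occurred in Id2 from position -231 and in Id4 from position -148, and in 11.9% of all stretches. GTCT occurred 3 times in Id3, from positions -166, -68 and 22, and 1 time in Id2, from position -23, but it was in 88.0% of all stretches. In Smad6 its 2 matches were those inside GTCTAGAC, and Id4 had none. A match describes letters, not a bound site, and longer-range elements lie outside these windows.

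**Figure D1:**
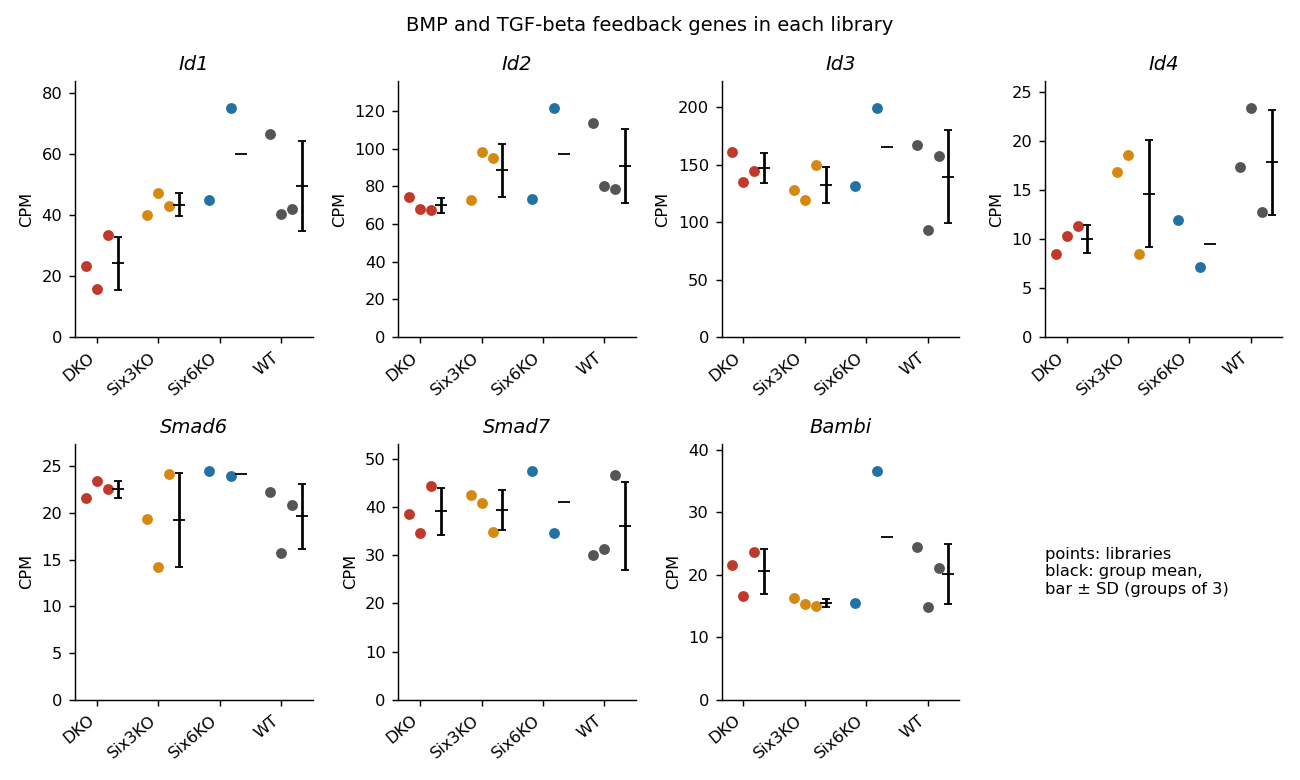
Level of each of the 7 genes in CPM (linear axes starting at 0) in every library, with groups from left to right DKO, Six3KO, Six6KO and WT. Each point is 1 library, and the black mark beside it is the group mean, with a bar of ± 1 SD for groups of 3. The 3 DKO libraries lie below the 8 others for Id1, and below the 3 WT libraries for Id2 and Id4. For Id3, Smad6, Smad7 and Bambi the DKO points lie among or close to those of WT.

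Among the 7 genes, Id1 stood furthest from WT in the double mutant, and no gene passed the test in any comparison at an adjusted p (edgeR's quasi-likelihood test, Benjamini-Hochberg over 13292 genes) under 0.05. Id1 had 23.2, 15.8 and 33.3 CPM in DKO, against 39.8, 47.2 and 42.8 CPM in Six3KO, 44.9 and 74.8 CPM in Six6KO and 66.3, 40.2 and 41.8 CPM in WT. Every DKO library lay below all 8 others, as for 3.57% of the genes tested, and the single mutants overlapped WT. The gene, on chromosome 2 (152736251 to 152737410, plus strand, GRCm38), encodes an inhibitor of bHLH factors whose transcription responds quickly to BMP. Its mean was 24.1 ± 8.77 CPM in DKO (SD, n = 3), 43.3 ± 3.72 CPM in Six3KO (n = 3), 59.8 CPM in Six6KO (n = 2) and 49.5 ± 14.6 CPM in WT (n = 3), from 191 to 849 reads per library. The log2 fold change of DKO against WT was -1.04 ± 0.30 (SE), with a 95% interval of -1.72 to -0.36 and an adjusted p of 0.145 in edgeR's quasi-likelihood test, lower in 3 of 3 libraries. Unadjusted, that p was 0.00672, and 13% of the genes tested had an unadjusted p under 0.05 in this comparison. DESeq2, run as an alternative, gave Id1 a log2 fold change of -1.03 and an adjusted p of 0.0246, and it called 773 genes (5.82%), against 172 (1.29%) by edgeR. In bulk RNA of this kind, fewer cells that express a gene and less of its RNA per cell cannot be told apart.

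Id1 was also lower in DKO than in either single mutant by estimate. Against Six3KO, where both groups carried Cre, its log2 fold change was -0.84 ± 0.30 (adjusted p 0.258 in edgeR, interval -1.52 to -0.17). Against Six6KO, it was -1.31 ± 0.33 (adjusted p 0.137 in edgeR, interval -2.05 to -0.57), and DESeq2 gave an adjusted p of 0.00957. Neither single mutant stood clear of WT: the log2 fold change was -0.20 ± 0.30 in Six3KO and 0.27 ± 0.33 in Six6KO. The interaction term (DKO minus Six3KO minus Six6KO plus WT), which asks whether DKO departs from both single effects added together, was -1.12 ± 0.44, with an unadjusted p of 0.0320 and an adjusted p of 0.448 in edgeR. All these comparisons share libraries, so they are not separate pieces of evidence. Leaving out 1 library at a time kept the sign of Id1 in DKO against WT, at -1.34 to -0.77, with adjusted p-values of 0.0809 to 0.486 in edgeR. Against the mean of the other 3 groups, a comparison chosen after the values were seen, the log2 fold change of Id1 in DKO was -1.06 ± 0.26 (adjusted p 0.0714 in edgeR), where 2.54% of genes were called. The other 6 members lay between -0.43 and 0.11 in that comparison, and none was called.

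Within the DKO group, library rh021 had the highest Id1 level (33.3 CPM) and also the highest Six3 and Six6 levels (98.2 and 99.8 CPM). It also had the highest sum in DKO of the 8 progenitor markers without Six3 and Six6 (3426 CPM). Its macrophage and pigment epithelium sums were the lowest in DKO (54.5 and 120 CPM). Six3KO library rh026, with the lowest Six3 level of all (30.3 CPM), had 42.8 CPM of Id1. A link between these levels was not tested. Mesenchyme markers were also low in the DKO libraries. The mesenchyme score, the mean log2 CPM of its 20 markers relative to the WT mean, was -3.14 to -2.27 in DKO, -1.52 to 1.70 in Six3KO, 0.84 to 0.98 in Six6KO and -1.92 to 0.98 in WT. In DKO against WT, all 20 markers had an estimate below 0 and 1 was called lower. The defining mesenchyme gene Foxc2 had no read in DKO library rh021 and none in WT library rh023. The blood vessel score ranged from -1.23 to -0.59 in DKO, -2.05 to 1.80 in Six3KO, 0.66 to 1.53 in Six6KO and -2.69 to 1.35 in WT, and summed CPM of the vessel markers was 130.1 to 138 in DKO and 194 to 444 in WT. Score and sum differed in order: WT rh023 (-2.69, 194 CPM) and Six3KO rh012 (-2.05, 189 CPM) lay below every DKO library by score and above by sum. The vessel score used as a covariate left out Eng, which is also in the pathway lists. Outside the DKO group, the lowest mesenchyme scores were those of Six3KO rh012 (-1.52) and WT rh023 (-1.92), with 47.2 and 40.2 CPM of Id1. Neither score reached the DKO range, so these libraries do not show Id1 at scores as low as in DKO. With the mesenchyme score as a covariate, the Id1 difference of DKO against WT was -0.95 ± 0.43 (adjusted p 0.326 in edgeR), and with the vessel score it was -0.99 ± 0.31 (adjusted p 0.112 in edgeR). Markers of other tissues differed beside Id1 too. In DKO against WT, 10 of 11 pigment epithelium markers (median -3.20) and 12 of 12 surface ectoderm markers (median -2.63, 1 called lower) had estimates below 0, as did all 6 tested red blood cell markers (median -1.21). So did all 16 lens markers (median -2.60, 0 called) and all 14 tested blood vessel markers (median -1.48, 1 called lower). Of the 11 macrophage and microglia markers 1 was below 0 (median 1.29), none was called, and they summed to 54.5 to 149 CPM in DKO and 29.9 to 74.9 CPM in WT. The part of these tissues in the Id1 result was not tested beyond the vessel and mesenchyme fits, and no lens score was fitted. The DKO scores lie outside the range of the mesenchyme score in WT, so the fit with the mesenchyme score extends beyond the WT data.

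**Figure D2:**
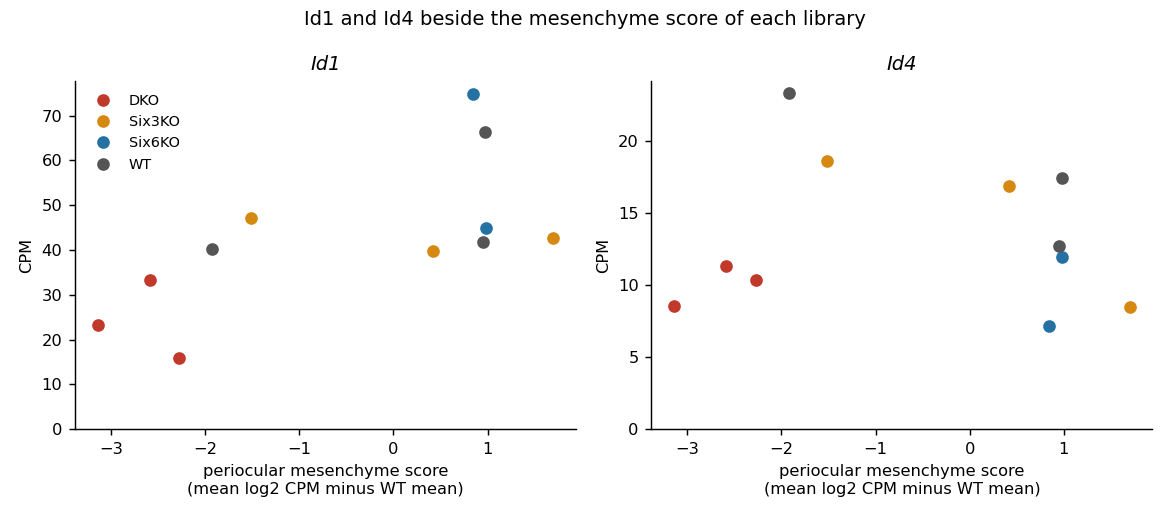
Levels of Id1 and Id4 in CPM (vertical axes) against the periocular mesenchyme score in log2 units relative to the WT mean (horizontal axes), with 1 point per library, coloured by group. The 3 DKO libraries have the lowest scores, from -3.14 to -2.27, and the lowest Id1 levels. The next lowest scores are those of WT library rh023 (-1.92, 40.2 CPM of Id1) and Six3KO library rh012 (-1.52, 47.2 CPM), both outside the DKO range. For Id4 the same WT and Six3KO libraries hold the highest levels, 23.4 and 18.6 CPM.

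In the plot of levels against the mesenchyme score, Id4 was highest in the WT and Six3KO libraries with the lowest scores of their groups. Id2, on chromosome 12 (25093799 to 25097140, minus strand), encodes another of the Id proteins that hold E proteins in dimers unable to bind DNA. Id2 had 74.5, 67.8 and 67.7 CPM in DKO, against 72.6, 98.4 and 95.04 CPM in Six3KO, 73.4 and 121 CPM in Six6KO and 114, 80.0 and 78.6 CPM in WT. The 3 DKO libraries lay below all WT libraries, as for 8.46% of the genes tested, and overlapped both single mutants. Their spread was narrow (70.0 ± 3.89 CPM in DKO and 90.8 ± 19.8 CPM in WT, SD, n = 3 each). Its log2 fold change of DKO against WT was -0.38 ± 0.21, with an adjusted p of 0.528 in edgeR and an interval of -0.85 to 0.09.

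Id4, on chromosome 13 (48261228 to 48266026, plus strand), encodes the most divergent Id protein, known for a role in timing neural differentiation. It had 8.52, 10.3 and 11.3 CPM in DKO, against 16.9, 18.6 and 8.47 CPM in Six3KO, 12.0 and 7.17 CPM in Six6KO and 17.4, 23.4 and 12.7 CPM in WT. All 5 libraries with Six6-/- lay below all 3 WT libraries, a pattern seen for 1.4% of the genes tested, and Six3KO spanned both. Six6KO alone lay below WT for 5.85% of genes. The log2 fold change was -0.82 ± 0.33 in DKO against WT (unadjusted p 0.0337, adjusted p 0.320 in edgeR) and -0.90 ± 0.38 in Six6KO against WT (unadjusted p 0.0414, adjusted p 0.991 in edgeR). DKO and Six6KO differed by 0.08 ± 0.38, with an interval of -0.77 to 0.92, which is too wide to call them alike. Id4 is the least abundant of the 4 Id genes, with 67 to 278 reads per library. Its exons overlap those of A330033J07Rik by 82 bases and of Gm49291 by 171 bases on the other strand. Whether reads were counted by strand was not given in the sources used here, and reads of these overlaps cannot be assigned to either gene. With the blood vessel score as a covariate, Id4 in DKO against WT was -0.99 ± 0.23, with an adjusted p of 0.0420 in edgeR, and with the mesenchyme score it was -1.42 ± 0.36, with an adjusted p of 0.0940 in edgeR. Over all genes those fits called 642 and 147 in this comparison, against 172 without a covariate. In Six6KO against WT, Id4 was -0.65 ± 0.27 with the vessel score and -0.66 ± 0.32 with the mesenchyme score. In DKO against Six6KO it was -0.33 ± 0.29 and -0.77 ± 0.46 in the same order, below 0 where the main fit gave 0.08. Id4 was not called in these Six6KO comparisons. The part of either tissue in the Id4 result was not tested beyond these fits.

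Id3, on chromosome 4 (136143497 to 136145755, plus strand), is a BMP-responsive Id gene that often shares sites of expression with Id1. It had 162, 136 and 144 CPM in DKO, against 128, 119 and 149.7 CPM in Six3KO, 132 and 199 CPM in Six6KO and 168, 93.3 and 158 CPM in WT. The DKO libraries lay inside the WT range. The log2 fold change of DKO against WT was 0.08 ± 0.22 (adjusted p 0.961 in edgeR), with an interval of -0.43 to 0.58.

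Because Id1 was low and Id3 was not in DKO, the shares of these genes in the Id family were also set apart there, which restates the levels above and was not tested. Per 100 reads of Id3 there were 14.4, 11.7 and 23.1 reads of Id1 in DKO, against 31.1, 39.7 and 28.6 in Six3KO, 34.04 and 37.6 in Six6KO and 39.6, 43.1 and 26.5 in WT. The highest DKO value lay below the lowest value of any other group, and this ratio does not depend on the library size. On a per-length scale (CPM per kb of exon), Id1 made up 11.4% to 20.5% of the summed Id1, Id2, Id3 and Id4 level in DKO, 22.8% to 26.7% in Six3KO, 26.6% to 28.4% in Six6KO and 22.6% to 28.3% in WT. Id3 made up 63.1%, 63.1% and 57.6% in DKO, against 41.5% to 55.2% in the 8 other libraries. Id2 held 19.8% to 23.2% in DKO and 20.2% to 26.1% in WT, and Id4 held 1.55% to 2.25% in DKO and 2.07% to 4.83% in WT, so the shares of Id2 and Id4 overlapped between DKO and WT. A ratio within a library shows unequal levels of the genes and does not tell which of them moved.

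**Figure D3:**
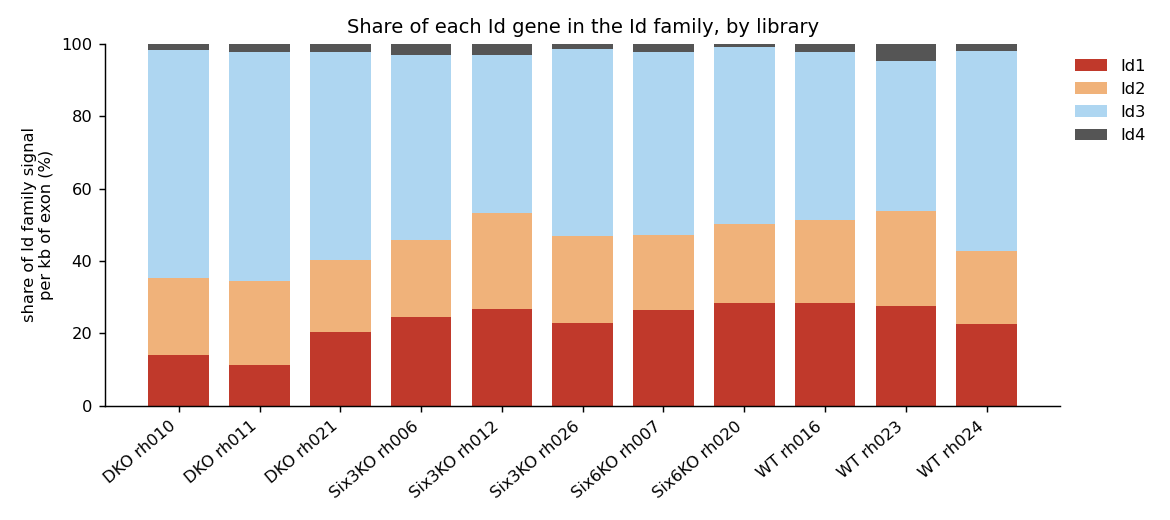
Share of each Id gene in the summed Id1, Id2, Id3 and Id4 level of each library (percent, from CPM per kb of exon), as stacked bars, 1 per library, with groups from left to right DKO, Six3KO, Six6KO and WT. The Id1 share is 11.4% to 20.5% in the 3 DKO libraries and 22.6% to 28.4% in the 8 others, and the Id3 share is 57.6% to 63.1% in DKO and 41.5% to 55.2% elsewhere.

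Of the intracellular brakes, neither Smad6 nor Smad7 was called in any comparison. Smad6, on chromosome 9 (63953076 to 64022059, minus strand), preferentially inhibits BMP signalling and is the member whose start site carries GTCTAGAC in the sequence above. It had 21.6, 23.4 and 22.6 CPM in DKO, against 19.3, 14.2 and 24.2 CPM in Six3KO, 24.5 and 24.0 CPM in Six6KO and 22.3, 15.7 and 20.9 CPM in WT. DKO and WT overlapped, while both Six6KO libraries lay above every WT and every DKO library. The log2 fold change was 0.20 ± 0.19 in DKO against WT (adjusted p 0.786 in edgeR, interval -0.24 to 0.64) and 0.30 ± 0.22 in Six6KO against WT (adjusted p 0.991 in edgeR). Complete separation of Six6KO above WT was seen for 7.2% of genes tested, and of DKO below Six6KO for 18.6%. With the mesenchyme score as a covariate, the Smad6 estimate in DKO was 0.74 ± 0.16 against WT (unadjusted p 0.000963, adjusted p 0.0585 in edgeR) and 0.82 ± 0.17 against Six3KO (adjusted p 0.0819 in edgeR). With the vessel score it was 0.34 ± 0.13 against WT (adjusted p 0.195 in edgeR).

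Smad7, on chromosome 18 (75367529 to 75395935, plus strand), inhibits both the BMP and the TGF-beta branch. It had 38.6, 34.5 and 44.3 CPM in DKO, against 42.6, 40.9 and 34.8 CPM in Six3KO, 47.5 and 34.6 CPM in Six6KO and 30.2, 31.3 and 46.6 CPM in WT. All 4 groups overlapped. Its log2 fold change of DKO against WT was 0.12 ± 0.19 (adjusted p 0.904 in edgeR), with an interval of -0.31 to 0.56, and its estimates against Six3KO and Six6KO were -0.01 ± 0.19 and -0.07 ± 0.22.

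Bambi, on chromosome 18 (3507923 to 3516404, plus strand), encodes the decoy receptor. It had 21.6, 16.6 and 23.6 CPM in DKO, against 16.2, 15.3 and 15.0 CPM in Six3KO, 15.5 and 36.6 CPM in Six6KO and 24.4, 14.9 and 21.0 CPM in WT. The DKO libraries lay inside the WT range and above all Six3KO libraries, as 13.4% of genes did, and the Six6KO libraries were further apart than any other pair of replicates. Its log2 fold change was 0.03 ± 0.29 in DKO against WT (interval -0.63 to 0.69) and 0.41 ± 0.29 in DKO against Six3KO (adjusted p 0.670 in edgeR). Without Six6KO library rh020 its Six6KO difference from WT was -0.39, against 0.37 with both libraries. The pseudogene Bambi-ps1 was counted apart, at a mean of 0.870 CPM, and the handling of reads that match both copies was not given in the sources used here.

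Levels per length ranged widely among the members. In CPM per kb of exon, the order in DKO was Id3 (82.2), Id2 (28.7), Id1 (20.8), Smad7 (8.66), Smad6 (7.04), Bambi (4.06) and Id4 (2.62), whereas in WT it was Id3 (77.9), Id1 (42.6), Id2 (37.2), Smad7 (7.97), Smad6 (6.13), Id4 (4.64) and Bambi (3.96). The libraries of Id1 and Id2, neighbours in this order, overlapped in each group. Smad7 and Smad6 overlapped in WT but not in DKO, and Id4 and Bambi overlapped in WT but not in DKO. Id3 was above every other member in every library.

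In total, 0 of the 7 members were called by edgeR in each comparison. The share of all genes called was 1.29% in DKO against WT, 0.00752% in Six3KO against WT, 0% in Six6KO against WT, 0.587% in DKO against Six3KO, 0.233% in DKO against Six6KO and 0% for the interaction term. An unadjusted p under 0.05 was reached by 2 members in DKO against WT (Id1 and Id4), none in Six3KO against WT, Id4 in Six6KO against WT, and Id1 in DKO against Six3KO, in DKO against Six6KO and in the interaction term. The shares of all genes under that threshold were 13%, 3.5%, 3.9%, 13.2%, 14.8% and 9.99% in the same order. DESeq2 called Id1 in DKO against WT and in DKO against Six6KO, where it called 5.82% and 5.05% of genes, and no member in the other 4 comparisons, where it called 0.136%, 0.0151%, 5.83% and 1.82%. In DKO against WT, 3 members (Id1, Id2 and Id4) had all DKO libraries below all WT libraries, as did 8.46% of genes, and no member had all of them above, as 9.03% of genes did. The median log2 fold change of the 7 members in this comparison was 0.03, with 4 above and 3 below 0, against a median of 0.00 over all genes tested.

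**Figure D4:**
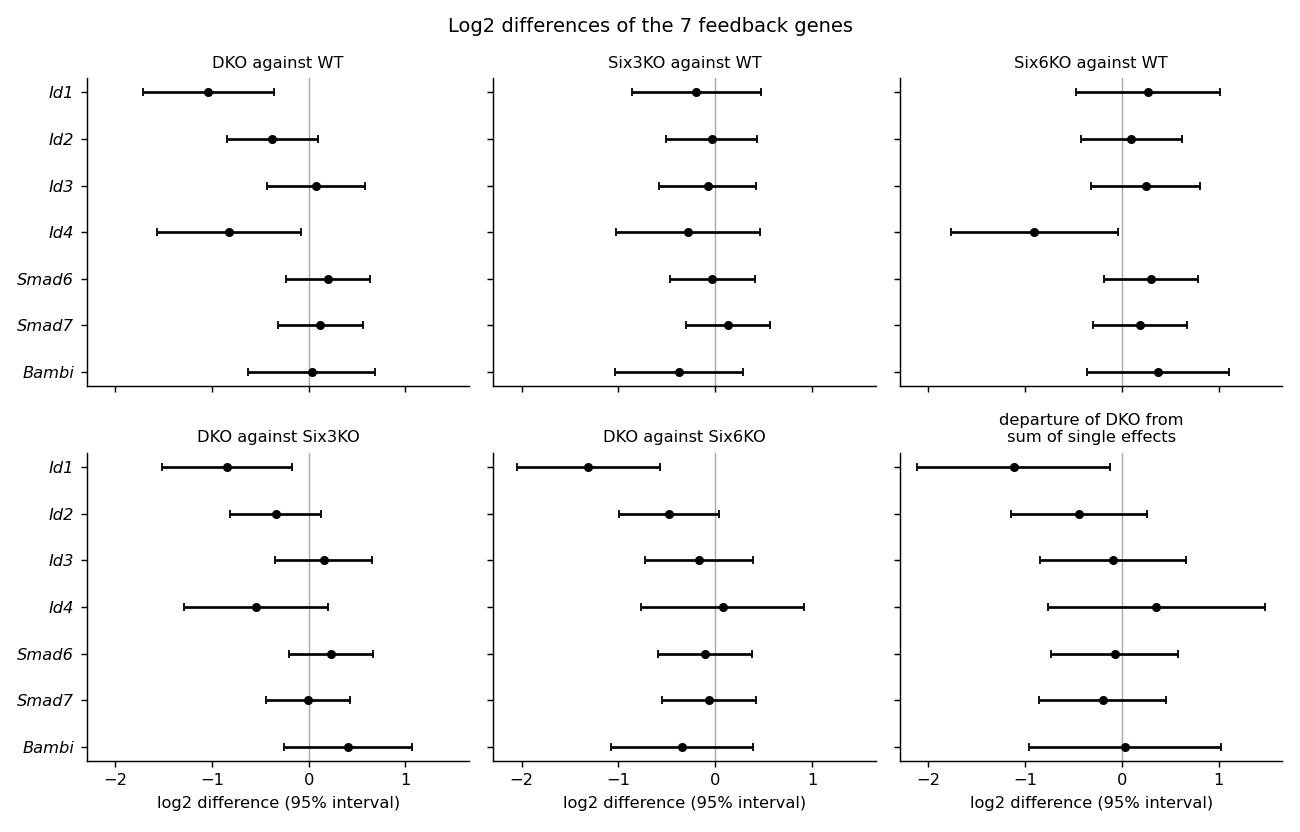
Log2 fold changes of the 7 genes in the 5 comparisons between groups and in the interaction term, titled as a departure in the plot (horizontal axis, log2 units), with bars for the 95% interval of edgeR's quasi-likelihood fit. The intervals of Id1 lie below 0 in the 3 comparisons that involve DKO and in the interaction term, and the interval of Id4 lies below 0 in DKO and in Six6KO against WT. All other intervals cross 0.

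The plot of fold changes shows intervals of the model without a covariate. In DKO against WT the intervals for Id3, Smad6, Smad7 and Bambi end between 0.56 and 0.69 on the upper side and between -0.63 and -0.24 on the lower. With the mesenchyme score as a covariate, the estimate of Smad6 (0.74) lay above its interval, and that of Id3 was 0.57 ± 0.26 (adjusted p 0.345 in edgeR). In Six3KO against WT the interval of Bambi ran from -1.04 to 0.29 around an estimate of -0.38 ± 0.30, and in Six6KO against WT that of Id2 ran from -0.42 to 0.62.

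The wider pathway was read from 8 lists holding 92 genes, of which 73 were in the table and 72 were tested. In DKO against WT, 1 of the 72 was called higher (Ctgf), none was called lower and 71 were not called, with 25 estimates above and 47 below 0 and a median of -0.20, against 1.29% of all genes called and a median of 0.00. DESeq2 called 7 of the 72 in DKO against WT, beside its 5.82% of all genes: Ctgf, Bmpr1b and Chrdl1 higher, and Tbx2, Tgfb2, Inhba and Sostdc1 lower. With the blood vessel score as a covariate edgeR called 5 of the 72 (Ctgf, Bmpr1b and Bmp7 higher, Tbx2 and Smad2 lower), beside 642 of all 13292 genes. With the mesenchyme score it called Bmp7 alone of the 72, as higher, beside 147 of all genes. None of the 72 was called by edgeR's main model in the other 5 comparisons. The calls given below for each list are edgeR's without a covariate. Many of these genes are also made by mesenchyme and vessels, whose markers were lower in DKO as given above, and the part of those tissues in the counts was not tested beyond the covariate fits.

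Among the ligands, none of 7 BMP ligands was called in DKO against WT (median -1.12). Bmp5, Bmp6 and Bmp2 had estimates of -1.76 ± 1.06, -1.48 ± 0.92 and -1.12 ± 0.84 (adjusted p 0.575 to 0.685 in edgeR). Their DKO and WT libraries overlapped, with 5 to 14 reads of Bmp5 and 6 to 11 of Bmp6 in DKO. With the mesenchyme score as a covariate, a fit that extends beyond the WT data, they became 1.75 ± 0.99, 1.5 ± 0.89 and 1.40 ± 0.68. The other BMP ligands were Gdf10 at -1.26, Bmp4 at -0.05, Gdf6 at -0.04 and Bmp7 at 0.33. None of 7 TGF-beta and activin ligands was called (median -0.77). Tgfb2, a TGF-beta made in the eye, had 93.7, 104 and 81.7 CPM in DKO, against 126, 134 and 216 CPM in WT. Its DKO libraries lay below all WT libraries, as for 8.46% of the genes tested, with a log2 fold change of -0.77 ± 0.21 (adjusted p 0.122 in edgeR). Inhba, the activin beta A subunit, had 0.984, 0.745 and 0.238 CPM in DKO, against 14.6, 0.694 and 3.06 CPM in WT. The log2 fold change of Inhba was -3.22 ± 1.20, the groups overlapped, and WT library rh016 had by far its highest WT level. For myostatin (Mstn) the estimate was -1.15.

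None of 10 BMP receptors and co-receptors was called (median -0.04). Bmpr1b, a type I receptor for BMPs and GDFs, had 181, 208 and 141 CPM in DKO, against 74.8, 81.9 and 57.0 CPM in Six3KO, 87.7 and 31.6 CPM in Six6KO and 33.1, 87.3 and 64.7 CPM in WT. Its DKO libraries lay above all 8 others, as for 4.21% of the genes tested, with a log2 fold change of 1.52 ± 0.41 and an adjusted p of 0.127 in edgeR. Its adjusted p was 0.0048 in DESeq2 and 0.0497 in edgeR with the vessel score as a covariate. With the mesenchyme score the estimate was 1.03 ± 0.50 (adjusted p 0.377 in edgeR). Leaving out 1 library at a time gave adjusted p-values of 0.0923 to 0.411 in edgeR, so the call was not reached there. The co-receptors Rgma and Rgmb had estimates of -0.67 and -0.34. None of 4 TGF-beta and activin receptors was called (median -0.26), with Tgfbr2 at -0.90, Acvr1b at -0.20 and Tgfbr1 at 0.13. None of 6 signal-carrying Smads was called (median -0.12), and Smad9, Smad2 and Smad3 had estimates of -0.76, -0.39 and -0.24.

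Of the secreted antagonists, 0 of 13 were called (median -0.40). Chrdl1, a chordin-like protein that binds BMPs, had 40.3, 42.4 and 31.6 CPM in DKO, against 24.6, 24.6 and 22.0 CPM in WT. Its DKO libraries lay above all WT libraries, as for 9.03% of the genes tested (log2 fold change 0.68 ± 0.16, adjusted p 0.0893 in edgeR). Sostdc1 and Bmper, which bind BMPs outside the cell, had estimates of -3.17 ± 1.17 and -2.70 ± 1.02. Both had few reads in DKO. Sostdc1 had 0.820, 0.994 and 0.793 CPM in DKO, against 19.6, 0.809 and 3.06 CPM in WT. Its groups overlapped, and WT library rh016 had by far its highest WT level. Bmper had at most 0.872 CPM in DKO and 1.53 to 4.38 CPM in WT. With the mesenchyme score as a covariate, Sostdc1 was 0.66 ± 1.00 and Bmper was -3.24 ± 1.20. None of 12 intracellular inhibitors outside the 7 members was called (median -0.05), with Pmepa1, a TGF-beta-induced inhibitor, at -1.13 ± 0.46, Nedd4l at -0.27 and Zeb2 at 0.18.

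Among 13 other target genes, Ctgf was called higher and 12 were not called (median -0.36). Ctgf encodes a matricellular protein induced by TGF-beta. It had 32.4, 40.6 and 18.2 CPM in DKO, against 17.5, 19.4 and 21.3 CPM in Six3KO, 16.4 and 15.9 CPM in Six6KO and 12.3, 10.8 and 14.1 CPM in WT. All DKO libraries were above all WT libraries, as for 9.03% of the genes tested, and DKO library rh021 was inside the Six3KO range. Its log2 fold change was 1.29 ± 0.26 and its adjusted p was 0.0476 in edgeR, close to the threshold. Without DKO rh010, DKO rh011 or any of the 3 WT libraries the call was lost (adjusted p up to 0.218 in edgeR), as it was with the mesenchyme score as a covariate (0.0856) and in a fit of the compared groups alone. The exons of Ctgf overlap Gm15270 by 665 bases on the other strand. Tbx2, a T-box factor of the dorsal eye regulated by BMP, had 53.4, 47.7 and 69.8 CPM in DKO, against 95.03, 114 and 156 CPM in WT. Its DKO libraries lay below all WT libraries, as for 8.46% of the genes tested, but overlapped Six3KO (68.4 to 107 CPM). The log2 fold change of Tbx2 was -1.09 ± 0.22, with an adjusted p of 0.0518 in edgeR. Runx2, a bone-lineage factor, had an estimate of -1.82.

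**Figure D5:**
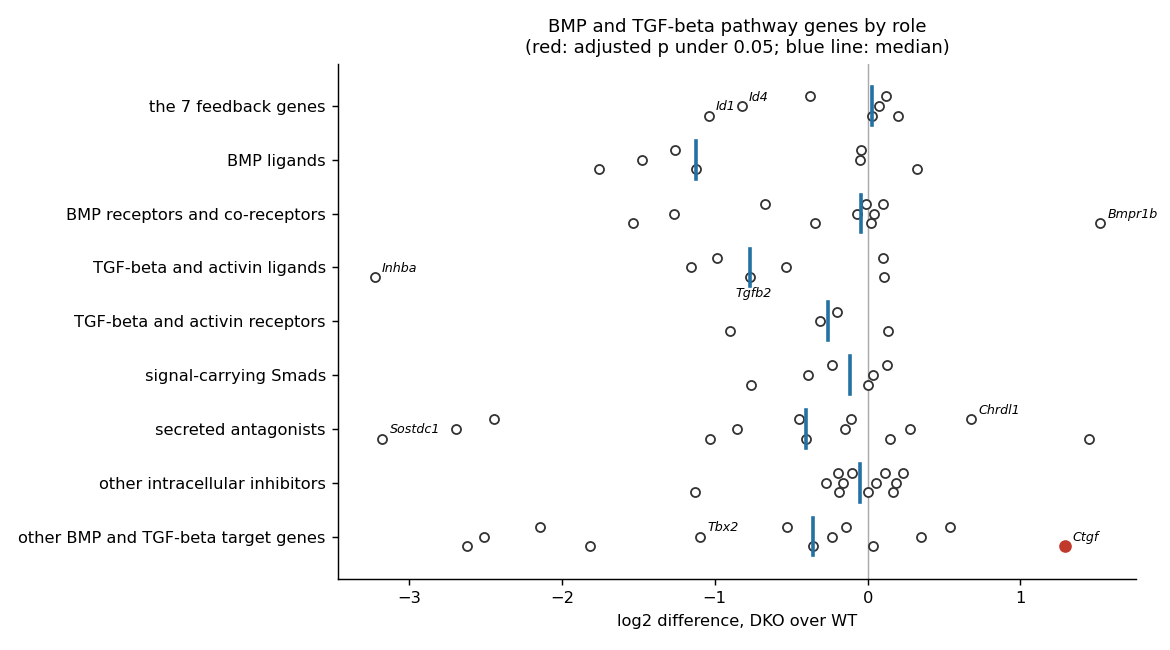
Log2 fold change of DKO against WT for each tested gene of the pathway lists and for the 7 members (1 axis, log2 units), with genes grouped by role and a mark for each list's median. Ctgf at 1.29 is the 1 gene called, and the lists of BMP ligands (median -1.12) and of TGF-beta and activin ligands (median -0.77) lie lowest among the pathway lists.

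The estimates for the E proteins, the binding partners of Id proteins, were smaller in size than that for Id1. None of 3 E proteins was called in DKO against WT, with Tcf12 at -0.12 ± 0.08, Tcf4 at -0.24 ± 0.20 and Tcf3 at -0.07 ± 0.14. None of 13 proneural and Hes bHLH factors was called by edgeR (median -0.53, 10 below 0). Of the genes named here, DESeq2 called Bhlhe22 higher and Ptf1a and Heyl lower, and edgeR with the vessel score as a covariate called Bhlhe22 higher and Ptf1a lower. Over all genes those fits called 773 and 642. Bhlhe22, a bHLH factor of retinal interneurons, had 61.8, 64.4 and 92.4 CPM in DKO, against 17.4, 25.7 and 16.4 CPM in WT. Its DKO libraries lay above all WT libraries, as for 9.03% of the genes tested, with a log2 fold change of 1.88 ± 0.39 (adjusted p 0.0553 in edgeR). Ptf1a, which specifies horizontal and amacrine cells, had 0.328, 0.497 and 2.22 CPM in DKO, against 5.70, 9.48 and 4.08 CPM in WT. Its DKO libraries lay below all WT libraries, as for 8.46% of the genes tested, with a log2 fold change of -2.64 ± 0.68 (adjusted p 0.111 in edgeR). The Notch target Heyl had an estimate of -1.34 ± 0.35.

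Genes whose log2 CPM followed a member most closely over the 11 libraries were sought among 11116 genes whose mean reached 5 CPM. For Id1 they were Sdhc (Pearson r 0.92), Gucy1b3 (0.90) and Mycbp (0.90), and for Id2 Spcs1 (0.92), Micall2 (0.91) and Cyb561d2 (0.91). For Id3 they were Lta4h (0.96), Txnip (0.95) and Lamtor1 (0.93), and for Id4 Fam63b (0.97), Robo2 (0.97) and Myt1l (0.96). For Smad6 they were Prag1 (0.93), Ror2 (0.92) and Lrig3 (0.92), for Smad7 Pbx2 (0.95), Adgra3 (0.92) and Tbrg4 (0.89), and for Bambi Banf1 (0.96), Zc3hc1 (0.95) and Chchd6 (0.95). Among the 21 pairs of members, the highest were Id3 with Bambi (0.81) and Id1 with Id2 (0.79), and the lowest were Id4 with Smad6 (-0.76) and Id3 with Id4 (-0.74). These values describe 11 libraries that share genotype groups and unequal amounts of non-retinal tissue, and they are the extremes of many comparisons.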

How the data were processed

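Libraries came from retinal total RNA, prepared with the KAPA RNA HyperPrep Kit with RiboErase, per the labels' protocols. The authors deposited raw counts, 1 row for each gene symbol and 1 column for each library. The submitters' processing notes name Trim Galore 0.3.7, TopHat2 2.0.13, HTSeq 0.6.1, Cufflinks 2.2.1, Cuffdiff and mm10. Which annotation and strand option were used, and how the 13498 genes were chosen, was not given in the sources used here. By the design text, the authors compared mutants with WT in DESeq2 and dropped a Six6KO sample with high duplication. Columns name the group and a library (such as rh010), not the labels' replicate number.

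The counts were modelled with edgeR 4.0.16 (R 4.3.3). filterByExpr (minimum count 10) left 13292 genes, TMM scaled the libraries, and 1 robust quasi-likelihood fit took all 11 libraries, with a mean for each group. A gene was called where its Benjamini-Hochberg adjusted p over all genes tested was under 0.05. Each SE is the size of the log2 fold change over the square root of F, and 95% intervals use the fit's degrees of freedom. DESeq2 1.42.0 was an alternative, as were other scalings, no filter, the compared groups alone, tissue scores as covariates and leaving out each library. Scores and correlations used log2 CPM (prior count 2). The fit was tested on simulated data. Gene positions and exon lengths are from GENCODE on GRCm38, and promoter sequences from RefSeq on GRCm38.p6. Depth ranged from 7807744 to 16403191 reads in genes.

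The 7 members, the pathway and marker lists and the tests were chosen with earlier results of these data known. Named were all members and, of each list, genes called in DKO against WT and up to 3 with the smallest p. For likeness, the 3 most correlated genes of at least 5 mean CPM were named for each member.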

Additional observations from a re-analysis of the deposited data

How the results depend on the processing

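No paired analysis was possible because the columns carry library names and no replicate numbers. Of 42 member values (7 genes in 6 comparisons), 560 alternative values were computed: 505 kept their direction and side of the threshold, 3 gained a call, 52 turned in direction and 0 lost a call. The count of members called, 0 in each comparison, became 1 in DKO against WT with DESeq2 (Id1) and with the blood vessel score as a covariate (Id4), and 1 in DKO against Six6KO with DESeq2 (Id1). The 172 genes called in DKO against WT became 773 with DESeq2 and 642 with the vessel score, and 20 to 205 when 1 library was left out, lowest without DKO rh010 (20) and DKO rh011 (25). Counted after the data were seen, the 1 pathway gene called became 2 without TMM, 7 with DESeq2, 0 in the compared groups alone, 5 with the vessel score and 0 to 2 without 1 library. The 0 E protein and bHLH genes called became 1, 6, 2, 6 and 0 to 2 in the same order. The cause of these shifts was not tested. Without a TMM factor, Smad7 in DKO against Six3KO was 0.013 (log2). With the mesenchyme score it was 0.038, and Id3, Id4 and Smad6 were 0.43, -0.77 and 0.60 in DKO against Six6KO and 0.51, -0.51 and 0.68 in the interaction term. With that score, in DKO against WT, Bmp5, Bmp6 and Bmp2 were 1.75, 1.5 and 1.40, Rgma 0.21, Inhba 0.32, Tgfbr2 2.08, Tgfbr1 -0.10, Smad3 0.059, Sostdc1 0.66, Zeb2 -0.0034 and Tcf4 0.16. With the vessel score, Id3, Id4 and Smad6 were 0.16, -0.33 and 0.18 in DKO against Six6KO and 0.20, -0.031 and 0.22 in the interaction term, and Tgfbr2 was 0.20 in DKO against WT. Leaving out 1 library turned the sign of the values that follow. In DKO against WT the ranges were -0.14 to 0.20 for Bambi, -0.14 to 0.23 for Id3 and -0.16 to 0.011 for Tcf3. In Six3KO against WT they were -0.31 to 0.077 for Id1, -0.11 to 0.16 for Id2, -0.28 to 0.075 for Id3 and -0.23 to 0.17 for Smad6. In Six6KO against WT they were -0.39 to 0.86 for Bambi, -0.16 to 0.60 for Id1, -0.33 to 0.42 for Id2, -0.10 to 0.52 for Id3 and -0.056 to 0.40 for Smad7. In DKO against Six6KO they were -0.83 to 0.43 for Bambi, -0.44 to 0.18 for Id3, -0.23 to 0.49 for Id4 and -0.26 to 0.18 for Smad7, and in DKO against Six3KO -0.11 to 0.072 for Smad7. In the interaction term they were -0.47 to 0.79 for Bambi, -0.38 to 0.24 for Id3, -0.26 to 0.14 for Smad6 and -0.43 to 0.033 for Smad7. Fits without 1 of the 2 Six6KO libraries assume that the lone library varies like the other groups. Id4 had the fewest reads of the members, down to 67 in a library.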
